A study of Mus musculus with 26 samples.

Results

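The genes described here encode the proteins of the cytosolic ribosome. They were taken by name from the gene symbols of the count table, as every Rpl or Rps symbol followed by a number and at most one further letter a or x, together with Rplp0, Rplp1, Rplp2 and Rpsa. The rule found 76 genes among 55291 gene rows, 30 of the small subunit and 46 of the large subunit, of which 3 are stalk proteins. All 76 had more than the required 10 counts over all libraries and all 76 passed the filter on low counts, which left 20953 genes in the test.

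The cytosolic ribosome is assembled in the nucleolus from ribosomal RNA and one copy of nearly every ribosomal protein, so cells make these proteins in matched amounts. Their mRNAs are short, abundant and spliced, and most begin with a run of pyrimidines (the 5′ terminal oligopyrimidine, or TOP, motif) through which growth signalling sets their translation. Introns of many of these genes also carry small nucleolar RNAs (snoRNAs), which are released after splicing and guide the modification of ribosomal RNA.

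The libraries came from mouse embryonic stem cells (ESC) of the R1 line, kept with LIF on gelatin, and from cells driven toward a totipotent-like state that resembles the early embryo at the 2C stage. Poly(A) RNA was sequenced in 13 groups of 2 libraries. The controls were ESC and DMSO, the latter given the solvent. RA cells received retinoic acid at 0.53 μM for 48 h, and PlaB cells received pladienolide B, an inhibitor of the SF3B part of the spliceosome, at 4 nM for 4 days. The inducible lines were labelled as overexpressing Zscan4 (Zscan4 OE), the homeodomain factor Dux (Dux OE) or the Dux R70A mutant (Dux R70A OE) under doxycycline at 4 μg/mL for 24 h. Dux knockdown cells (Dux KD) were studied with RA, PlaB or Zscan4, and cells with a CRISPR deletion of the Tdpoz super-enhancer (SE KO) with RA, PlaB or Dux. No untreated or DMSO library of Dux KD or SE KO cells was analysed here, so an effect of the line alone and an effect on the response to a treatment cannot be told apart. How many clones each line stands for was not given in the sources used here.

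Libraries held between 14401452 and 39402840 counts. The numbers of the 2 replicates did not pair samples across groups, and nothing in the labels says that replicates came from separate cultures, so the p-values below measure only the spread between these libraries. One SE KO RA library, replicate 1, carries a wild-type genotype label against its title. Its ribosomal protein values lay close to those of replicate 2, and the comparisons that rest on it are given with and without it. The treatment label of the libraries titled Dux KD Zscan4 OE gives no Zscan4 induction, and Zscan4c stood at 0.779 and 1.13 CPM in them, against 99.98 and 103 CPM in Zscan4 OE and 5.73 and 6.13 CPM in ESC. The measured gene went against their titles, so in comparisons of these libraries an effect of Dux KD and a lack of Zscan4 induction cannot be told apart. Duxf3, the gene encoding Dux, stood at 9.25 and 8.21 CPM (counts per library size times its TMM factor, scaled to a common total) in the PlaB libraries and at 0.0590 and 0 CPM in the Dux KD PlaB libraries. In RA it stood at 2.16 and 2.75 CPM and in Dux KD RA at 0.919 and 0.354 CPM. It stood at 4.01 and 3.24 CPM in Dux OE and at 0 in both libraries labelled Dux R70A OE, so the counts do not show the mutant transgene. Whether transgene reads were counted on this gene was not given in the sources used here. The 9 ESC markers, among them Pou5f1, Sox2 and Nanog, summed to between 3288 and 8791 CPM over the groups, with none under 1 CPM in any group. In these bulk libraries, fewer cells of a type and less RNA per cell cannot be told apart.

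Sequence around the start of 6 of these genes is shown, of members that fell with PlaB (Rps2, Rpl7a, Rps12), were not called (Rps6, Rps9) or rose (Rpl24). Each is a 30-base window that holds the longest run of C and T, in capitals. That run was sought within 30 bases either side of the RefSeq start of the gene (GRCm38.p6). The window is printed 5′ to 3′ on the strand of the gene and need not be centred on the start. The windows are Rpl7a (chr2:26910788-26910817, + strand), Rps12 (chr10:23787182-23787211, - strand), Rps6 (chr4:86857349-86857378, - strand), Rps9 (chr7:3704024-3704053, + strand), Rps2 (chr17:24720055-24720084, + strand) and Rpl24 (chr16:55966275-55966304, + strand).
Rpl7a: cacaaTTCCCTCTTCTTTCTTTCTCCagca
Rps12: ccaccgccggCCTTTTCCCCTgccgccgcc
Rps6: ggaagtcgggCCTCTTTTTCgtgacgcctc
Rps9: caaccgccttgTCTCTCTTTgtctcgggcc
Rps2: cgagatctcgcgCTTCTTggagcactataa
Rpl24: ggaaacagactgggcgCTCggaagtgacat
The run was 21 bases long in Rpl7a, 11 in Rps12, 10 in Rps6, 9 in Rps9, 6 in Rps2 and 3 in Rpl24. A run of at least 8 pyrimidines lay within 30 bases of an annotated start for 32 of the 56 members with a RefSeq promoter entry (57.1%). The share was 25.8% of all 27025 gene symbols with an entry. The letters CCGGAA, the core that ETS factors such as GABPA bind, were sought on either strand of the 300-base promoter. They lay in 31 of the 56 members (55.4%) and in 16.7% of all symbols with an entry. The letters ATGGCGGC, the YY1 core, lay in 4 members (7.14%) and in 2.61% of all symbols with an entry. These matches are letters in a window and not measured sites.

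Over the whole series, mean levels of the 76 genes ran from 2.02 to 2358 CPM with a median of 681 CPM. Per kilobase of exon in ESC, the highest levels were those of Rps15 (1562 CPM per kb), Rpl8 (1307) and the stalk gene Rplp1 (1239). The lowest were those of Rpl24 (1.74 CPM per kb), Rps10 (3.20) and Rpl34 (6.27). Part of the counted sequence is shared with other transcripts. Over the 76 genes, a median of 35.5% of the 50-base stretches of their transcripts also occur in other annotated transcripts, and 20 members share 50% or more. For Rpl24 this share was 81.7%, and 47.0% of its exon bases overlap Gm28037. For every 100 counts on Rps10 there were 2781 on processed pseudogenes named after it, and for Rpl34 there were 1167. How reads with more than 1 possible gene were counted was not given in the sources used here. The levels and changes of Rpl24, Rps10, Rpl34 and Rpl29, the 4 members under 50 CPM, are therefore uncertain. The same limit applies to abundant members that share much sequence, such as Rpl23a (82.6%), Rpl7a (81.2%), Rps12 (64.6%) and Rps2 (56.4%). Exons of other genes on either strand also overlap 62.3% of the exon bases of Rpl23a.

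The 76 genes took between 5.69% and 5.92% of all counts in the 4 ESC and DMSO libraries. The share was 3.54% and 3.17% with PlaB, the lowest of the series, and 4.98% and 4.92% with RA. It was 6.47% and 6.28% with Dux OE and 6.04% and 5.95% in those labelled Dux R70A OE. The Zscan4 OE libraries, at 5.83% and 5.47%, overlapped the control range. In Dux KD cells the share was 4.76% and 4.64% with RA, 6.61% and 6.56% with PlaB, and 6.96% and 6.05% in the libraries labelled Dux KD Zscan4 OE. In SE KO cells it was 6.96% and 6.85% with RA, 3.67% and 4.70% with PlaB, and 6.29% and 6.68% with Dux OE.

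**Figure D1:**
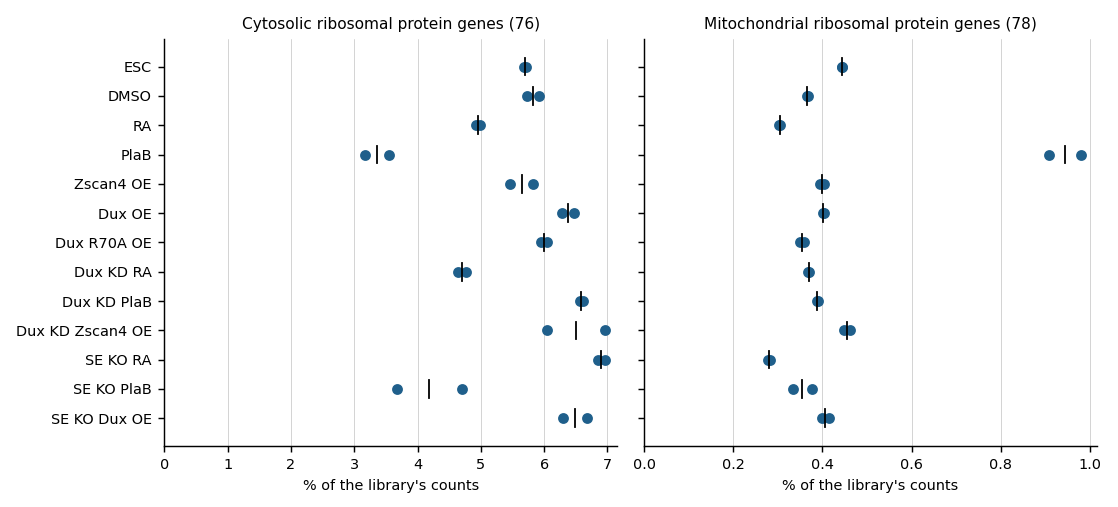
Percent of each library's counts on the 76 cytosolic ribosomal protein genes (left) and on the 78 mitochondrial ones (right), with one point per library and a line at the mean of the 2 libraries of a group. The PlaB libraries lie lowest on the left, at 3.54% and 3.17%, and highest on the right, at 0.980% and 0.908%.

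Among the 73 members with a mean of at least 10 CPM, group means spanned a median of 1.57 on the log2 scale over the 13 groups, against 1.94 for the 9590 genes at that level or above. Rps2, which lines the entry channel for mRNA, had the widest range (5.15, a 35.5-fold difference). It was followed by Rpl7a (3.87), Rpl23a (3.69), Rpl12 (3.63), Rps12 (3.61) and Rps15 (3.31). Rps6, the substrate of S6 kinase, had the narrowest (0.78), with Rps9 and Rpl19 at 0.85 each. PlaB was the lowest group for 49 of the 76 genes. The group labelled Dux KD Zscan4 OE was the highest for 27, Dux OE for 15 and SE KO RA for 11.

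**Figure D2:**
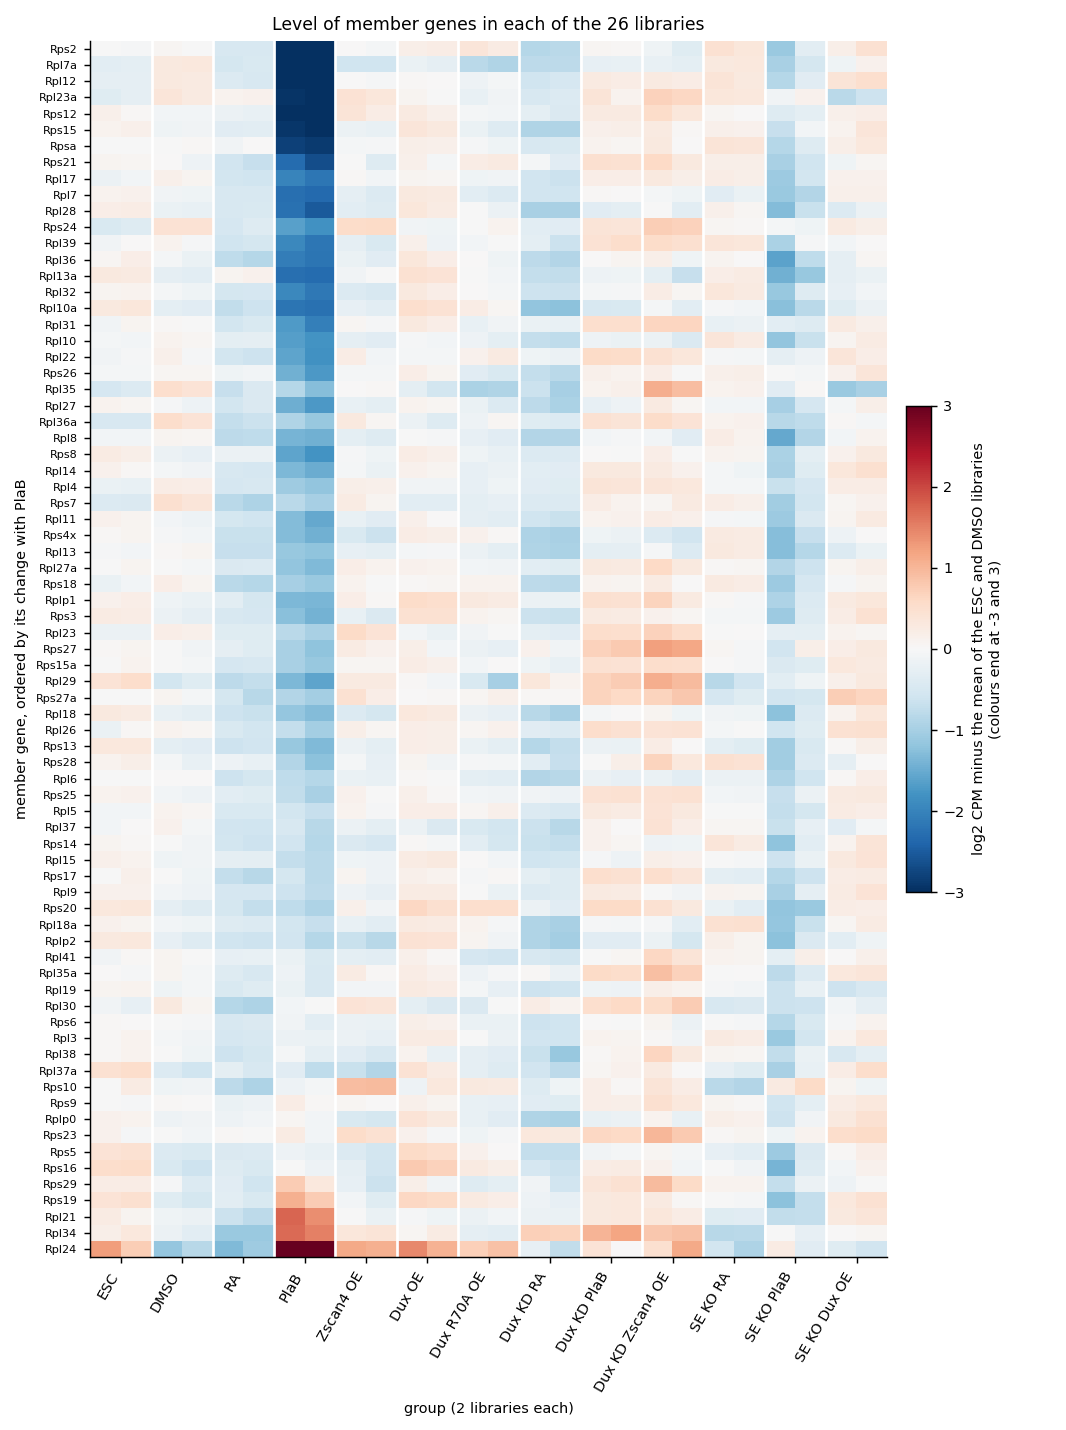
Log2 CPM of 75 of the 76 genes (rows, ordered by their change with PlaB) in each of the 26 libraries (columns, 2 per group), as the difference from the mean of the ESC and DMSO libraries, with colours ending at -3 and 3. Both PlaB columns are darkest, blue for Rps2 at the top and red for Rpl24 at the bottom.

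To ask what splicing inhibition did to these genes, PlaB was compared with DMSO. Most ribosomal protein mRNAs were lower with PlaB, but by very unequal amounts, from a 27.4-fold fall of Rps2 to no call for genes such as Rps6 and Rplp0. Of the 76 genes, 59 were called lower and 6 higher at an adjusted p of 0.05 by the quasi-likelihood test of edgeR, with Benjamini-Hochberg correction over all 20953 genes, where 35.4% of all genes were called lower and 41.7% higher. At 2-fold or more, 40 fell and 4 rose, against 26.6% and 32.3% of all genes. The median log2 change of the members was -1.02 and that of all genes 0.22. When libraries were scaled by their totals alone, the medians were -0.76 for the members and 0.48 for all genes, so their distance stayed at -1.24. In the main fit, 55 members had under 50% of their 50-base stretches shared and under 50% of their exon bases overlapped. Of these 55, 41 were called lower and 5 higher, with a median of -0.94.

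Rps2 was at 2272 and 2150 CPM in DMSO and at 87.2 and 74.4 CPM with PlaB. The log2 change was -4.77 ± 0.17 (SE, n = 2 per group, adjusted p = 1.29e-19 in edgeR). The DMSO libraries lay far above both PlaB libraries. Rpl7a, a large subunit protein whose gene hosts snoRNAs, was at 2414 and 2463 CPM in DMSO and at 179 and 155 CPM with PlaB (log2 change -3.87 ± 0.11, adjusted p = 2.45e-21 in edgeR). Rpl12, at the base of the stalk, stood at 1344 and 1314 CPM against 127 and 114 CPM. Rpl23a, at the exit of the peptide tunnel, stood at 947 and 888 CPM against 96.3 and 84.1 CPM. These 4 genes fell by 10-fold or more, and none of their libraries overlapped between the groups. Rps12, Rps15 and Rpsa, all of the small subunit, fell 8.43-fold, 7.27-fold and 7.24-fold. Rpsa, also known as the laminin receptor, was at 2111 and 2191 CPM in DMSO and at 306 and 289 CPM with PlaB.

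Another set of members did not fall. Rps19, the gene most often mutated in Diamond-Blackfan anaemia, was at 373 and 335 CPM in DMSO and at 1011 and 812 CPM with PlaB (log2 change 1.37 ± 0.12, adjusted p = 9.11e-11 in edgeR). Rpl21 was at 131 and 127 CPM against 485 and 382 CPM, a 3.35-fold rise. Rpl34 and Rpl24, which are among the uncertain low genes, were also called higher, Rpl34 from 12.4 and 11.2 CPM to 45.6 and 40.1 CPM and Rpl24 from 0.397 and 0.493 CPM to 12.9 and 12.7 CPM. Without the 4 members under 50 CPM, 58 of 72 were called lower and 4 higher. The remaining calls for a rise were Rps29 (0.76) and Rps16 (0.45), on the log2 scale. For Rps16 the rise held against DMSO only. It was at 364 and 321 CPM in DMSO, 492 and 446 CPM with PlaB, and 716 and 731 CPM in ESC. A further 11 members were not called. Rps6 stood at 1478 and 1474 CPM in DMSO and at 1386 and 1195 CPM with PlaB, Rps9 at 861 and 856 CPM against 993 and 862 CPM, and Rpl3, which helps to form the peptidyl transferase centre, at 1146 and 1121 CPM against 1060 and 1047 CPM.

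**Figure D3:**
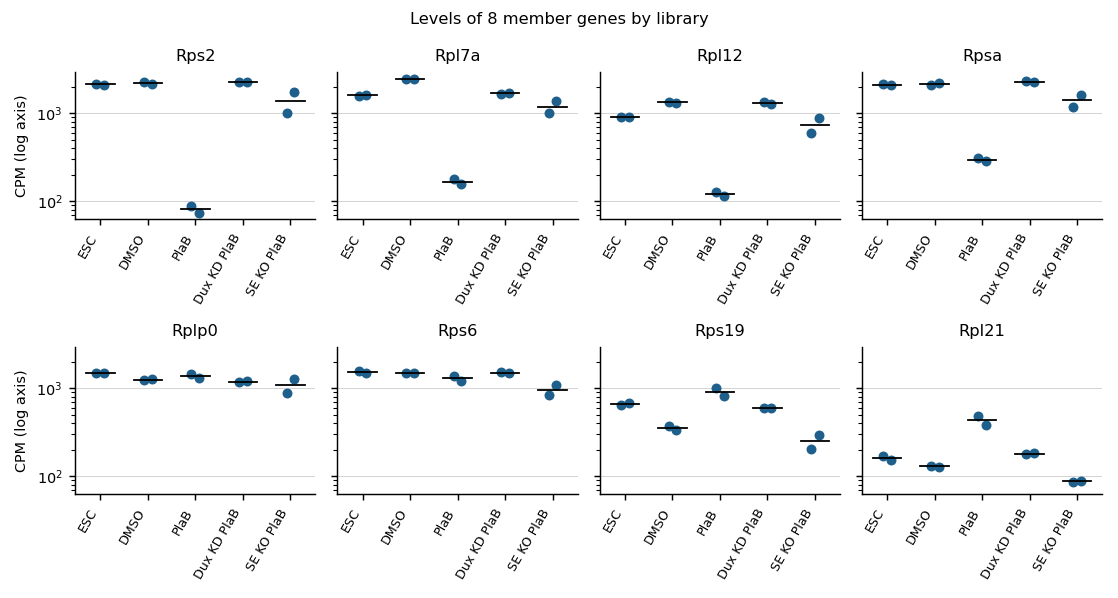
CPM on a log axis of 8 genes in ESC, DMSO, PlaB, Dux KD PlaB and SE KO PlaB, with one point per library and a line at the group mean. Rps2, Rpl7a, Rpl12 and Rpsa are lowest with PlaB among these groups (Rps2 to 87.2 and 74.4 CPM), Rplp0 and Rps6 stay near their DMSO levels, and Rps19 and Rpl21 are highest with PlaB.

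The unequal falls cut across the roles of the proteins. In the small subunit 21 of 30 genes were called lower and 3 higher (median -0.94), and in the large subunit 38 of 46 lower and 3 higher (median -1.20). Of the stalk, which recruits translation factors, Rplp0 was not called (0.12), Rplp2 fell by 0.40 and Rplp1 fell by 1.19 on the log2 scale. Rpl5 and Rpl11, which travel with 5S rRNA and can bind Mdm2, fell by 0.70 and 1.31. On the decoding side, Rps3 fell by 1.11, Rps27a (made as a fusion with ubiquitin) by 0.97 and Rps4x by 1.31, while Rps23 was not called (0.14). Rps14, beside the platform, fell by 0.65. Rpl10, which joins the large subunit last, fell by 1.80 on the log2 scale and Rpl22 by 1.77. The small proteins Rpl39 and Rpl41 fell by 2.08 and 0.35.

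Features of the genes were set beside these changes as a description. The 29 members with a snoRNA gene inside them had a median change of -1.21 (24 called lower, 2 higher), and the 47 without one had -0.97 (35 lower, 4 higher). Of the 10 members that fell most, 7 host a snoRNA gene, among them Rps2, Rpl7a, Rpl12, Rpl23a and Rps12, and of the 10 with the highest changes 2 do. A pyrimidine run of at least 8 bases lay in 2 of the 10 that fell most and in 2 of the 10 highest, with 7 of each set having an entry. Members with a pyrimidine run of at least 8 bases had a median of -1.21 and the others with an entry -0.99. Rps6 and Rps9, which were not called, and Rps12, which fell, all carry such a run, whereas Rps2 has a run of only 6 in the sequences above. Across the 76 genes, Spearman's rho with the PlaB change was -0.13 for the number of introns, 0.16 for intron bases, -0.23 for the number of snoRNA genes inside, -0.24 for the share of 50-base stretches found elsewhere and -0.23 for the mean level. These genes share the same libraries and much sequence.

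Related genes were counted in the same comparison. Of 19 other genes with TOP mRNAs, such as the elongation factors, 16 fell and none rose with PlaB (median -1.26). Of 26 nucleolar ribosome biogenesis genes, 13 fell and 10 rose (median -0.22). The mitochondrial ribosomal proteins went the other way, with 68 of 77 tested called higher, 5 lower and a median of 1.30. Their share of counts was 0.980% and 0.908% with PlaB and 0.367% and 0.364% with DMSO. Rows for pseudogenes of these ribosomal protein genes, of which 125 could be tested, had 56 called lower and 35 higher (median -0.44). Markers of other cell types also moved: the 6 trophectoderm markers summed to 442 CPM with PlaB and 28.5 CPM with DMSO. With PlaB 2 of these 6 markers were under 1 CPM, Cdx2 and Elf5, and none was at 0. The part of such cells in the ribosomal protein values was not tested.

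**Figure D4:**
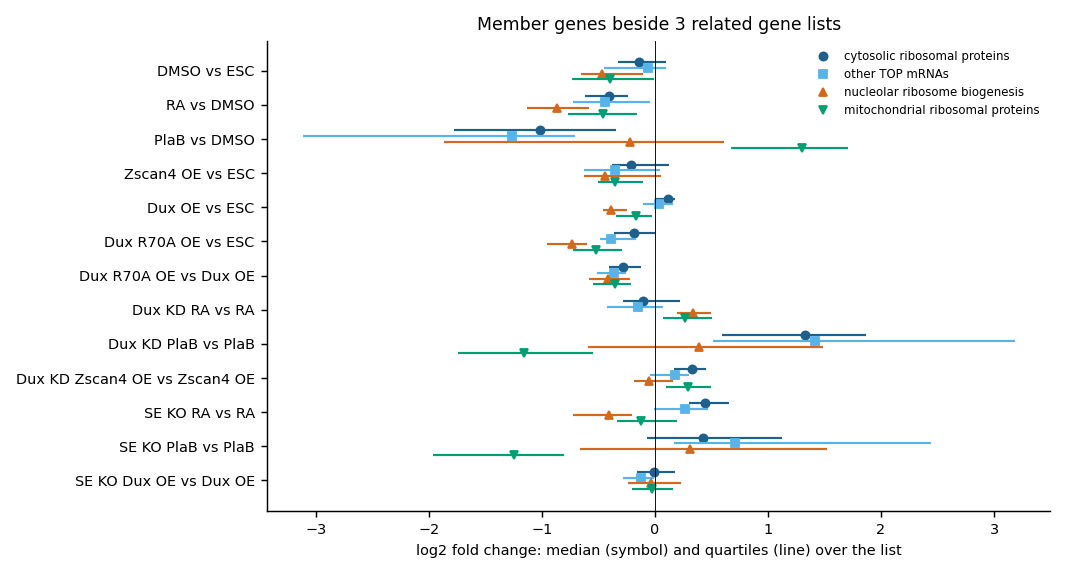
Median log2 fold change (symbol) and quartiles (line) of the 76 genes, the other TOP genes, the nucleolar biogenesis genes and the mitochondrial ribosomal proteins in each of the 13 comparisons. With PlaB the first 3 lists have medians below 0 (-1.02, -1.26 and -0.22) and the mitochondrial list lies at 1.30.

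Dux KD cells given PlaB were then compared with PlaB cells, to ask what the response looked like with less Dux. Ribosomal protein genes stood near their DMSO levels in the Dux KD PlaB cells. Of the 76 genes, 62 were called higher and 4 lower than in PlaB, against 35.5% and 38.8% of all genes, and 47 rose and 2 fell by 2-fold or more, against 26.1% and 28.8%. The median was 1.32 for the members and -0.14 for all genes. Rps2 was at 2274 and 2228 CPM in the Dux KD PlaB libraries (4.80 ± 0.17 against PlaB, adjusted p = 1.54e-19 in edgeR), a range that overlapped that of DMSO (2272 and 2150 CPM). Rps12 was at 407 and 401 CPM (3.43 ± 0.09 on the log2 scale) and Rpl7a at 1663 and 1691 CPM. The latter lay between PlaB and DMSO and close to ESC, where it was at 1570 and 1611 CPM. The 4 called lower were Rpl24, Rpl21, Rpl34 and Rps19, each of which had risen with PlaB. Rps19 was at 590 and 597 CPM, still above both DMSO libraries. In the Dux KD PlaB cells 73 of the 76 genes lay within 2-fold of DMSO, against 32 of 76 in the PlaB cells. Mitochondrial ribosomal proteins were lower (67 of 77, median -1.16) and the other TOP genes higher (17 of 19, median 1.42) in the same comparison. The summed trophectoderm markers were at 32.7 CPM, with Cdx2 and Elf5 at 0.

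SE KO cells given PlaB were also compared with PlaB cells. Here 46 of the 76 genes were called higher and 15 lower, against 35.5% and 36.5% of all genes, and 22 rose and 4 fell by 2-fold or more, against 25.9% and 26.1%. The median was 0.42 against -0.07 for all genes. The 2 SE KO PlaB libraries differed, and without replicate 2 the median was 0.20 and without replicate 1 it was 0.65. Rps2 was at 1004 and 1736 CPM (4.08 ± 0.16, adjusted p = 2.55e-18 in edgeR) and Rpl23a at 682 and 801 CPM (3.04 ± 0.10). For Rps2 and Rpl23a alike, both libraries lay far above PlaB and below both DMSO libraries. The 15 called lower included Rpl21, at 86.7 and 87.9 CPM, and Rps19, at 206 and 292 CPM, which lay below PlaB and also below DMSO. They also included genes that PlaB alone left uncalled, such as Rplp0 (881 and 1273 CPM), Rps6 (829 and 1093 CPM) and Rpl3 (550 and 822 CPM). With PlaB, Rplp0 was at 1426 and 1294 CPM, so SE KO PlaB replicate 2 lay only slightly below PlaB for this gene. Against DMSO, 71 of the 76 genes lay within 2-fold and 5 lay lower. The summed trophectoderm markers were at 202 CPM, and primitive endoderm markers were at 131 CPM against 9.75 CPM in DMSO. The mitochondrially encoded genes took 5.20% and 4.44% of counts in SE KO PlaB, 1.404% and 1.56% in PlaB and 3.11% and 3.13% in DMSO. The part of these in the ribosomal protein values was not tested.

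With RA the fall was shallower and more even. Of the 76 genes, 51 were called lower and 1 higher than in DMSO, against 26.6% and 32.3% of all genes, and 4 fell by 2-fold or more, against 10.4% of all genes. The median was -0.41 for the members and 0.10 for all genes, and scaled by library totals alone -0.21 and 0.30. Rps7 was at 750 and 690 CPM in DMSO and at 304 and 280 CPM with RA (-1.30 ± 0.11, adjusted p = 5.72e-11 in edgeR). Rpl36a was at 410 and 380 CPM against 173 and 183 CPM (-1.15 ± 0.09). Neither gene overlapped between the groups. In ESC, Rps7 was at 400 and 399 CPM and Rpl36a at 205 and 204 CPM. For both genes ESC thus lay above RA but far below DMSO, so the size of these falls held against DMSO only. Rpl13a, which can leave the ribosome to repress translation in inflammation, was the 1 called higher, at 76.4 and 73.5 CPM in DMSO and 96.4 and 99.1 CPM with RA (0.38 ± 0.10, adjusted p = 0.00116 in edgeR), and against ESC its change was -0.19. Large subunit genes had 36 of 46 called lower (median -0.44) and small subunit genes 15 of 30 (median -0.27). All 26 nucleolar biogenesis genes fell (median -0.87), as did 51 of 77 mitochondrial ribosomal protein genes (median -0.46). The summed primitive endoderm markers were at 84.9 CPM with RA and 9.75 CPM with DMSO, and their part was not tested.

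With RA, deletion of the super-enhancer went with higher levels across the family. All 76 genes had a change above 0 in SE KO RA against RA, 60 were called higher and none lower, against 21.3% and 24.7% of all genes, and 2 rose by 2-fold or more, against 6.57%. DESeq2 also called 60 higher and 0 lower, and since no member fell, 0 were lower at an unadjusted p of 0.05. The median was 0.44, with the middle of the genes between 0.30 and 0.65, and -0.04 for all genes. Rps18 was at 513 and 501 CPM with RA and at 1077 and 1055 CPM in SE KO RA (1.07 ± 0.11, adjusted p = 1.79e-08 in edgeR). Its levels in DMSO were 1034 and 956 CPM. Rps7 was at 622 and 599 CPM (1.06 ± 0.11), between RA and DMSO. Without the library whose genotype label says wild type, 54 were called higher and none lower, with a median of 0.44. Pseudogene rows moved with the members (46 of 125 higher, 3 lower, median 0.55), whereas nucleolar biogenesis genes had 19 of 26 called lower (median -0.40). The summed ESC markers were at 3288 CPM in SE KO RA and 4182 CPM in RA, trophectoderm markers at 106 and 66.3 CPM and primitive endoderm markers at 59.8 and 84.9 CPM, and their part was not tested.

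In Dux KD RA against RA, 16 members were called higher and 17 lower, shares near the 18.0% and 19.2% of all genes, with a median of -0.11. With only these 2 groups in the fit, 24 were called higher and 40 lower. The shares of all genes called in that fit are not given here. At 2-fold or more 2 rose and none fell, against 6.41% and 4.53%. Rpl34 rose from 6.48 and 6.43 CPM to 23.0 and 22.2 CPM (1.81 ± 0.12) and Rpl30 from 31.2 and 29.7 CPM to 65.8 and 60.5 CPM (1.05 ± 0.11, adjusted p = 5.17e-08 in edgeR). Rplp0, the scaffold of the stalk, was at 1231 and 1293 CPM with RA and at 728 and 707 CPM in Dux KD RA (-0.81 ± 0.12, adjusted p = 3.39e-06 in edgeR). Rpl13a fell from 96.4 and 99.1 CPM to 55.9 and 55.0 CPM. In DMSO, Rplp0 was at 1229 and 1270 CPM, a range that overlapped that of RA.

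**Figure D5:**
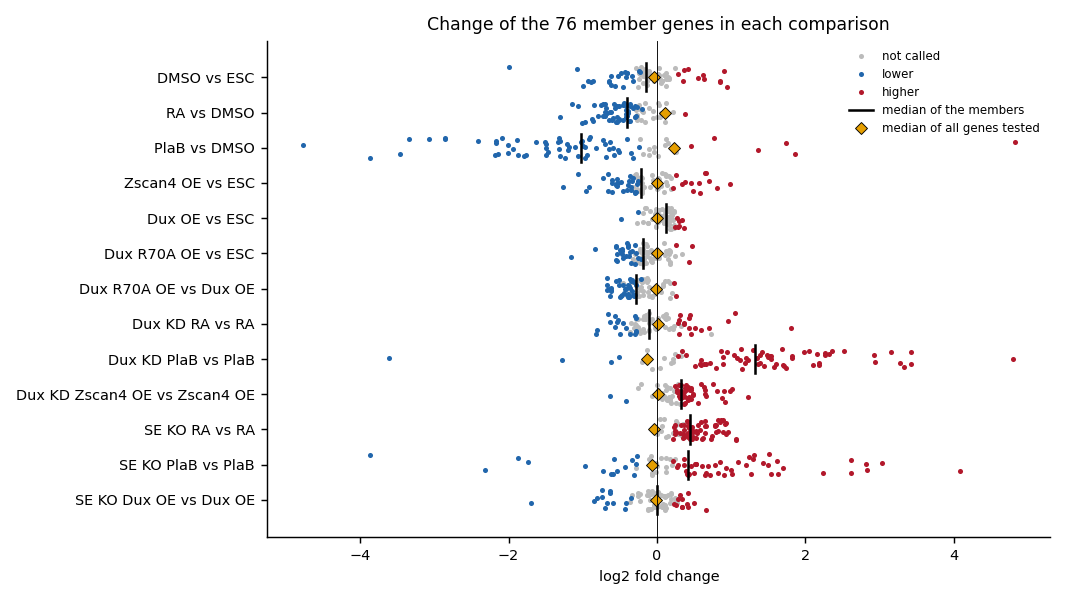
Log2 fold changes of the 76 genes in each of the 13 comparisons, one point per gene, blue where called lower, red where called higher and grey where not called, with a bar at their median and a diamond at the median of all genes tested. Member medians run from -1.02 for PlaB against DMSO to 1.32 for Dux KD PlaB against PlaB, and Dux OE is the narrowest with an SD over genes of 0.15.

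Dux OE had the smallest spread of changes over the family of the 13 comparisons. Of the 76 genes, 7 were called higher and 2 lower, against 14.7% and 12.8% of all genes. None changed by 2-fold, where 7.38% of all genes rose and 2.12% fell by that much. The median was 0.12. With only these 2 groups in the fit, 45 were called higher and 7 lower, and against DMSO in place of ESC 31 and 10. Shares of all genes for that fit and that control are not given here, so these counts do not show whether the family stood apart. The calls also depended on single libraries: without Dux OE replicate 1 or replicate 2 there were 1 and 2 calls, and without ESC replicate 1 or replicate 2 there were 1 and 4. Rplp1 was at 605 and 632 CPM in ESC and at 807 and 782 CPM with Dux OE (0.36 ± 0.12, adjusted p = 0.0226 in edgeR). Rpl23a rose by 0.34 on the log2 scale, and Rpl29 fell by 0.49 and Rpl21 by 0.25. Against DMSO in place of ESC, these last 3 changes had the opposite sign (-0.29, 0.44 and 0.073). Of the nucleolar biogenesis genes 21 of 26 fell with Dux OE (median -0.39).

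The libraries labelled Dux R70A OE, in which Duxf3 was at 0, were compared with Dux OE. Here 36 members were called lower and 2 higher, against 21.4% and 17.3% of all genes, with a median of -0.28. None passed 2-fold, against 6.11% of all genes that rose and 7.51% that fell by that much. Rpl37a was at 925 and 809 CPM with Dux OE and at 566 and 521 CPM in those labelled as the mutant (-0.67 ± 0.16, adjusted p = 0.0013 in edgeR). Rpl22 and Rpl36a were the 2 called higher, by 0.26 and 0.24 on the log2 scale. Scaled by library totals alone, 12 were called lower and 7 higher, with a median of -0.089 against 0.17 for all genes. Without Dux OE replicate 1 there were 18 calls, without Dux OE replicate 2 there were 21 and without Dux R70A OE replicate 2 there were 19. Against ESC, the libraries labelled as the mutant had 27 members called lower and 3 higher (23.0% and 21.6% of all genes, median -0.19), or 18 calls in all without Dux R70A OE replicate 2. At 2-fold or more 1 fell and none rose, against 6.72% and 10.2%. Scaled by totals alone this direction turned, with 18 called higher and 8 lower and a median of 0.048, while all genes stood at 0.20. With only these groups in the fit, 37 were called lower and 12 higher. All-gene shares for these settings are not given here. Rpl29 fell by 1.16 and Rpl37a by 0.83 on the log2 scale in this comparison, and Rps24 and Rpl36a rose by 0.48 and 0.43. Against DMSO in place of ESC, the last 3 of these turned, to 0.16 for Rpl37a, -0.37 for Rps24 and -0.52 for Rpl36a. The share of counts on the family was higher in both of these libraries (6.04% and 5.95%) than in both ESC libraries (5.69% and 5.72%).

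Zscan4 OE had 30 members called lower and 13 higher than ESC, against 19.6% and 18.9% of all genes, with a median of -0.21. Only 2 fell by 2-fold or more and none rose that far, against 4.39% and 7.25%. Scaled by totals alone there were 16 lower and 22 higher, with a median of -0.059 against 0.15 for all genes. Rpl37a was at 949 and 990 CPM in ESC and at 429 and 376 CPM with Zscan4 OE (-1.27 ± 0.16, adjusted p = 5.48e-07 in edgeR). Rplp2 was at 573 and 583 CPM against 292 and 260 CPM. Rps24, a small subunit gene, rose from 883 and 939 CPM to 1790 and 1833 CPM (0.99 ± 0.07), and Rps10 by 0.82 on the log2 scale. The DMSO libraries stood nearer to Zscan4 OE than to ESC for Rpl37a, Rplp2 and Rps24, but not for Rps10 (6.24 and 6.31 CPM in DMSO, 6.73 and 8.06 CPM in ESC, 12.8 and 13.2 CPM with Zscan4 OE). Rpl37a was at 521 and 455 CPM in DMSO, Rplp2 at 394 and 357 CPM and Rps24 at 1639 and 1639 CPM. Against DMSO, Zscan4 OE had 9 members called higher and 14 lower, with a median of -0.050. The shares of all genes for that control are not given here.

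Between the 2 controls, calls among the members were about as frequent as among all genes. DMSO had 22 members called lower and 11 higher than ESC, against 22.4% and 21.2% of all genes, with a median of -0.14 (-0.094 without DMSO replicate 2). At 2-fold or more 2 fell and none rose, against 7.91% and 8.32%. Scaled by totals alone there were 18 lower and 14 higher, and with only these groups in the fit 42 lower and 20 higher. Rps16, a small subunit gene, was at 716 and 731 CPM in ESC and at 364 and 321 CPM in DMSO (-1.08 ± 0.17, adjusted p = 6.31e-06 in edgeR), and Rpl24 fell by 2.00 on the log2 scale. Rpl36a was at 205 and 204 CPM against 410 and 380 CPM (0.95 ± 0.09), and Rpl35 rose by 0.90. Across the 76 genes, Spearman's rho of the levels was 0.994 between Dux OE and ESC, 0.908 between Zscan4 OE and ESC, and 0.980 between Zscan4 OE and DMSO. Whether the solvent or another difference between these cultures goes with it was not tested.

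The libraries labelled Dux KD Zscan4 OE, in which Zscan4c stood below its ESC level, had 46 members called higher and 2 lower than Zscan4 OE, against 16.0% and 16.7% of all genes, with a median of 0.33. At 2-fold or more 2 rose and none fell, against 5.78% and 5.35%. Rps29, a small zinc-binding protein of the small subunit head, was at 154 and 117 CPM with Zscan4 OE and at 357 and 275 CPM in these libraries (1.22 ± 0.18, adjusted p = 4.84e-06 in edgeR). Rps27 was at 228 and 212 CPM against 452 and 435 CPM. Neither gene overlapped between the groups. Rps10 and Rpl13a were the 2 called lower, with log2 changes of -0.63 and -0.42. The libraries labelled Dux KD Zscan4 OE differed in the share of counts on the family (6.96% and 6.05%), and there were 24 calls without replicate 1 of that group and 22 without Zscan4 OE replicate 2.

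SE KO Dux OE against Dux OE had 12 members called higher and 13 lower, against 11.5% and 14.0% of all genes, with a median of -0.0046. With only these groups in the fit there were 19 and 19. By 2-fold or more 1 fell and none rose, against 3.84% and 2.46%. Rps27a was at 515 and 530 CPM with Dux OE and at 854 and 800 CPM in SE KO Dux OE (0.66 ± 0.09, adjusted p = 9.98e-06 in edgeR). Rps23, of the decoding centre, rose by 0.51 on the log2 scale. Rpl24 fell by 1.70 on the log2 scale.

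The effect of each line was then compared between treatments, with the difference itself tested in the same edgeR fit. The Dux KD effect was higher with PlaB than with RA for 66 of the 76 genes and lower for 5, against 32.3% and 33.6% of all genes. The SE KO effect was lower with Dux OE than with RA for 48 and higher for 2, against 19.0% and 22.3% of all genes. With PlaB against RA, the SE KO effect was higher for 25 and lower for 30, against 35.5% and 27.6% of all genes. Without the SE KO RA library whose genotype label says wild type, the SE KO effect was lower with Dux OE than with RA for 40 and higher for 1, and with PlaB against RA it was higher for 24 and lower for 27.

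Members were also set against each other, by scaling each library to the median of the family itself, which does not depend on how libraries are scaled to other genes. This scaling places the middle of the family near no change, so near-equal numbers above and below it follow from the scaling. The shares of all genes on that scale carry the shift of the family itself. With PlaB, 31 of the 76 genes were then called above the family and 34 below it, where 59.9% of all genes were called higher and 20.0% lower on that scale. With Dux KD PlaB against PlaB, 32 were above and 30 below (15.9% and 63.5% of all genes). With RA, 18 were above and 15 below (44.4% and 12.2%), and with SE KO RA against RA 17 and 17 (5.66% and 46.1%). With Dux OE, 2 were above and 3 below (10.3% and 12.3%), and 71 were not called. The SD over genes of the log2 change was 1.35 with PlaB, 0.32 with RA and 0.15 with Dux OE.

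Ribosomal protein genes and paralogs outside the name rule were read beside the members. Rps3a1 fell by 1.45 with PlaB and Rack1, the scaffold on the small subunit, by 0.71 on the log2 scale. Fau, which encodes a ubiquitin-like fusion with a small subunit protein, rose by 0.92. It was at 182 and 164 CPM in DMSO and at 350 and 307 CPM with PlaB. In ESC it was at 307 and 319 CPM, a range that overlapped that of PlaB. Several paralogs rose with PlaB on the log2 scale: Rpl39l by 3.56, Rps27l by 2.42, Rpl10l by 2.06, Rpl36al by 1.58, Rpl3l by 1.42 and Rpl7l1 by 0.52. Rpl36al (2.03 and 3.63 CPM) and Rpl3l (4.31 and 3.81 CPM) stood low even with PlaB. Rps27l, a known p53 target, was at 136 and 128 CPM in DMSO and at 740 and 675 CPM with PlaB. Rpl39l was at 2.10 and 1.59 CPM in DMSO and at 21.5 and 22.0 CPM with PlaB, but at 23.7 and 24.3 CPM in ESC, so both PlaB libraries lay below both ESC libraries. All genes sharing a 50-base stretch with transcripts of Rpl39 (8 genes), Rpl3 (26) and Rpl7 (13) had pseudogene transcripts. Rpl39l, Rpl3l and Rpl7l1 were thus not among them. Apart from pseudogenes, Rps27 shared such stretches only with Rps27rt (46.2% of them) and Rpl10 only with Rpl10-ps3. Whether reads moved between members and paralogs was not tested. Rpl22l1, the paralog of Rpl22, was not called (-0.30), and Rps27rt and Rps4l fell by 1.64 and 1.30.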

How the data were processed

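Poly(A) RNA-seq of 26 mouse libraries (13 groups of 2) was read from one deposited table of raw gene counts, with no normalization. The submitters' processing notes name FastQC, Trimmomatic, STAR, featureCounts and DESeq2, without versions, and the mm10 build. How reads with several matches or overlapping genes were counted, and whether strand was used, were not given in the sources used here. For the Dux knockdown, the paper reports shRNAs described before. Reads shared between ribosomal protein genes, their pseudogenes and paralogs can therefore be lost or assigned differently in the deposited counts.

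Groups followed the sample titles. All 26 libraries entered one edgeR 4.0.16 quasi-likelihood fit (R 4.3.3) with a term per group, TMM scaling and the filterByExpr filter, which left 20953 genes. The common biological coefficient of variation was 0.0833. P-values were two-sided and adjusted by the Benjamini-Hochberg method over all genes tested, and a gene was called at an adjusted p under 0.05. Log2 changes carry a prior count of 0.125, and errors are standard errors of the fit. CPM are counts divided by the library size times its TMM factor and scaled to a common total, whereas shares of counts use the library total. The script was tested on simulated data. Alternatives were DESeq2 1.42.0, other scalings, no filter, the compared groups alone, the other control, a 2-fold minimum, a replicate block and leaving out each library. Shares of all genes called are given for the main fit, its 2-fold minimum and the scaling to the family. Member counts under other settings are therefore not set against all genes. Replicate numbers did not pair libraries (correlations of deviations from -0.0979 to 0.0224). Libraries with fewer counts give less precise values for the low genes.

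The members and lists were chosen with earlier results of these data known. Named genes were, for each comparison, the 2 called members with the largest rise and fall, the 6 widest and 3 narrowest over groups, the 3 highest and lowest per kilobase in ESC, members of set roles, and 13 paralogs, and a few of the genes so chosen are not reported here. Sequence windows and promoters came from RefSeq (GRCm38.p6) and gene structure from GENCODE vM21. Of the 76 members, 56 had a promoter entry, and the other 20 were not searched.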

Additional observations from a re-analysis of the deposited data

Results flagged for a closer look

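The effect of a line was compared between treatments in 6 tests of the difference itself, made in the edgeR fit with Benjamini-Hochberg adjustment. Part of the ribosomal protein genes were called in each. Large shares of all genes were called as well, so the number called does not by itself set the family apart. The Dux KD effect differed between PlaB and RA for 71 of the 76 genes (66 higher with PlaB and 5 lower, against 32.3% and 33.6% of all genes, median difference 1.22 on the log2 scale). The libraries labelled Dux KD Zscan4 OE had Zscan4c at 0.779 and 1.13 CPM, against 99.98 and 103 CPM in Zscan4 OE, so in the next 2 differences an effect of Dux KD and a lack of Zscan4 induction cannot be told apart. Between Zscan4 OE and RA the difference was called for 40 (36 higher with Zscan4 OE and 4 lower, against 14.2% and 14.8%, median 0.35), and for 26 without Dux KD Zscan4 OE replicate 1. Between PlaB and Zscan4 OE it was called for 62 (52 higher with PlaB and 10 lower, against 32.3% and 30.4%, median 1.05).

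The SE KO effect differed between PlaB and RA for 55 genes (25 higher with PlaB and 30 lower, against 35.5% and 27.6% of all genes, median 0.11). Between Dux OE and RA it differed for 50 (2 higher with Dux OE and 48 lower, against 22.3% and 19.0%, median -0.51). Without the SE KO RA library whose genotype label says wild type, these counts were 51 and 41. Between PlaB and Dux OE it differed for 52 (41 higher with PlaB and 11 lower, against 31.1% and 28.3%, median 0.49), or 35 higher and 16 lower when libraries were scaled by their totals alone. These tests share libraries with each other and with the comparisons above, and no cause was tested.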

How the results depend on the processing

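Of 165 other values for the number of members called, apart from those that leave out 1 library, 146 stayed within 1.5 times. With only the 2 groups compared in the fit, calls were 62 for DMSO against ESC (20 higher, 42 lower), 52 for Dux OE (45 and 7), 49 for Dux R70A OE against ESC (12 and 37), 64 for Dux KD RA (24 and 40) and 38 for SE KO Dux OE (19 and 19). With a 2-fold minimum they were 2 for DMSO against ESC, 4 for RA, 2 for Zscan4 OE, 0 for Dux OE, 1 and 0 for Dux R70A OE against ESC and Dux OE, 2 for Dux KD RA, 2 for the libraries labelled Dux KD Zscan4 OE, 2 for SE KO RA, 26 for SE KO PlaB and 1 for SE KO Dux OE. Against the other control there were 23 for Zscan4 OE and 41 for Dux OE, and with totals alone 19 for Dux R70A OE against Dux OE. Leaving out 1 library gave 1 to 4 calls for Dux OE, 18 to 25 and 18 to 36 for Dux R70A OE against ESC and Dux OE, 22 to 46 for Dux KD Zscan4 OE and 26 to 46 for the Dux KD difference between Zscan4 OE and RA. Medians so obtained ran from -0.17 to -0.094 for DMSO against ESC, -1.23 to -0.93 for PlaB, 0.059 to 0.10 for Dux OE, -0.22 to -0.17 and -0.31 to -0.22 for the libraries labelled as the mutant, and 1.21 to 1.51 for Dux KD PlaB. With totals alone the medians were -0.069 for DMSO, -0.21 for RA, -0.76 for PlaB, -0.059 for Zscan4 OE, 0.16 for Dux OE, 0.048 and -0.089 for the mutant, -0.040 for Dux KD RA, 1.12 for Dux KD PlaB and 0.39 for SE KO RA. With no filter they were -0.091 for DMSO, -0.44 for RA, -1.19 for PlaB, 0.065 for Dux OE, -0.20 for the mutant against Dux OE, 1.47 for Dux KD PlaB and 0.48 for SE KO RA. Against the other control they were -0.54 for RA, -0.050 for Zscan4 OE, 0.18 for Dux OE and -0.053 for the mutant, and with DESeq2 or its size factors -0.87 for PlaB and 1.17 for Dux KD PlaB. Without mitochondrial genes the mean shares of counts were 5.89% (ESC), 6.01% (DMSO), 5.13% (RA), 6.58% (Dux OE), 6.13% (Dux R70A OE), 4.82% (Dux KD RA), 6.78% (Dux KD PlaB) and 7.10% (SE KO RA). The sign turned against the other control for Rpl12, Rpl23a, Rpl21 and Rpl29 with Dux OE (-0.25, -0.29, 0.073 and 0.44), Rpl12 and Rps19 with Zscan4 OE (-0.29 and 0.24), Rpl13a with RA (-0.19) and Rpl36a, Rpl37a and Rps24 with the mutant (-0.52, 0.16 and -0.37), and with totals alone for Rpl19 with PlaB (0.013) and Rps9 with the mutant against ESC (0.017). In CPM, both PlaB libraries of Rps16 also lay above both DMSO libraries and below both ESC libraries. With the replicate number as a block, calls were 65 for PlaB, 52 for RA, 10 for Dux OE, 31 for Dux KD RA and 60 for SE KO RA, and no count moved by over 1.5 times. Apart from these constructions, the cause was not tested. Depth limits mainly Rpl24, at 1022 counts over all libraries.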
